A study of Macaca mulatta with 6 samples.

Results

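The heat shock proteins described here are the products of 10 genes for cytosolic and mitochondrial chaperones: HSPA1A, HSPA8, HSPH1, DNAJA1, DNAJB1, HSP90AA1, HSP90AB1, HSPB1, HSPD1 and HSPE1. For each gene every probe set of the array whose annotation names it was taken. The 10 genes, of 13119 that the annotation names, had 22 of the 22215 probe sets that are not controls. Of these, 18 name 1 member alone or HSPA1A together with its near-identical neighbour HSPA1B. The other 4 name further genes as well: the 3 probe sets of HSPA8 also name the small nucleolar RNA genes SNORD14C and SNORD14D, and 1 probe set of HSPA1A and HSPA1B also names HSPA1L. These 4 are given by their values only, without a p. All 22 lay at or above the median level of the array, so no member was lost to the filter on low values.

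RNA came from the left adrenal glands of 6 ovariectomized female rhesus macaques. The first gland was from 3 AM and the others followed every 4 h (7 AM, 11 AM, 3 PM, 7 PM, 11 PM), with 1 animal for each time. The animals had lived for 3 months in 12 h of light and 12 h of dark and had gone 12 h without food. The labels do not give the hour of lights-on. Daytime (7 AM, 11 AM and 3 PM) and night (7 PM, 11 PM and 3 AM) are therefore names for groups of clock times here. The 3 AM and 7 AM animals were both aged 12 years. The 11 AM animal was aged 10 years plus 37 days, the 3 PM animal 8 years plus 106 days, the 7 PM animal 7 years plus 82 days and the 11 PM animal 8 years plus 70 days. No clock time has a second animal, so a value at one time is the value of one animal, and the ovaries had been removed in all of them. In whole gland, fewer cells of a type and less RNA per cell cannot be told apart.

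Heat shock proteins bind unfolded polypeptides and help them to fold, to reach their compartment or to be degraded. HSP70 proteins such as HSPA1A and HSPA8 bind and release clients in cycles of ATP hydrolysis that J-domain proteins such as DNAJA1 and DNAJB1 start and exchange factors such as HSPH1 complete. HSP90 proteins act later in folding and hold steroid receptors, the glucocorticoid receptor among them, in the state that binds hormone. HSPB1 is a small heat shock protein that keeps clients from aggregating, while HSPD1 and HSPE1 form the folding chamber of the mitochondrial matrix and its lid. Many of these genes are induced by the transcription factor HSF1 when proteins misfold, for example in heat, whereas HSPA8 and HSP90AB1 are abundant without stress.

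The 11 AM animal stood highest for most heat shock probe sets, and the 3 AM animal was often lowest. The highest value of 13 of the 22 probe sets was at 11 AM, against 14.3% of the 11108 probe sets of the array that were tested. At 11 AM 21 of the 22 lay above their own mean over the 6 arrays, against 53.9% of all tested, and the exception was HSPE1. None of the 22 was lowest at 11 AM (12.7% of all tested), although 1 was after quantile normalization. The lowest value of 11 of the 22 was at 3 AM (17.4% of all tested), which became 7 after quantile normalization. On the log2 scale the median deviation of the 22 probe sets from their own means was 0.31 at 11 AM and -0.22 at 3 AM, where that of all tested probe sets was 0.02 and 0.02. The highest value was at least 1.5 times the lowest for 15 of the 22 (72% of all tested) and at least 2 times the lowest for 9 (29.7% of all tested). Members share the same 6 animals and several share a gene, so these counts are not independent.

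**Figure D1:**
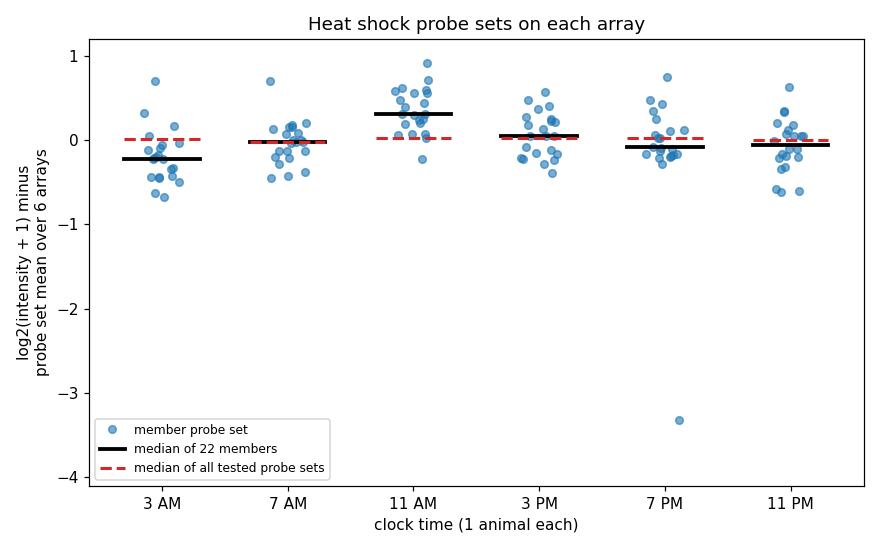
Deviation of each of the 22 heat shock probe sets from its own mean, as log2(intensity + 1), on each array (1 animal per clock time); black bars are the median of the 22 and dashed bars the median of all tested probe sets. The black bar is highest at 11 AM, at 0.31, and lowest at 3 AM, at -0.22, and the isolated low point at 7 PM is a DNAJB1 probe set.

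HSPH1, the exchange factor of the HSP70 cycle, gave the clearest course, with its highest value at 11 AM on both of its probe sets. On 206976_s_at its intensity was 725 at 3 AM, 940.0 at 7 AM, 1223 at 11 AM, 990.2 at 3 PM, 730 at 7 PM and 548 at 11 PM. In clock order the value rose at every step from 11 PM to 11 AM and fell at every step from 11 AM to 11 PM. The 3 daytime arrays (7 AM, 11 AM and 3 PM) all lay above the 3 others. A cosine of 24 h fitted to these 6 values peaked at 11.2 h, with a peak 2.06 times the trough (log2 1.04 ± 0.26, SE of the fit) and an R2 of 0.974. By limma's moderated F test the unadjusted p was 0.0135 and the adjusted p 0.866. The exact test over the 60 circular orders of the arrays gave p = 0.0167, the smallest it can give. On 208744_x_at the intensity was 391 at 3 AM, 484 at 7 AM, 934 at 11 AM, 509 at 3 PM, 404 at 7 PM and 396 at 11 PM. Here the 11 AM animal stood alone, 2.31 times the median of the other 5, and the daytime arrays again lay above the rest. The fitted peak was at 11.3 h and 2.05 times the trough (log2 1.04 ± 0.35), with an unadjusted p of 0.0546 by limma and an exact p of 0.05 over the orders.

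DNAJA1, a J-domain partner of HSP70 proteins, was also high from late morning to mid-afternoon. On 200880_at its intensity was 350.8 at 3 AM, 402 at 7 AM, 501 at 11 AM, 505 at 3 PM, 339 at 7 PM and 254 at 11 PM. The curve peaked at 11.7 h, 1.90 times its trough (log2 0.92 ± 0.28), with an unadjusted p of 0.0327 and an adjusted p of 0.866 by limma's moderated F test and an exact p of 0.0667 over the orders. On 200881_s_at the same gene had 869 at 11 AM and 809 at 3 PM, above the 424 to 512 of the rest. The 7 AM animal was the lowest on that probe set but above all night arrays on the first, so the probe sets parted at 7 AM and both had their highest values at 11 AM and 3 PM. Its fitted difference was 0.85 ± 0.36 on the log2 scale with a peak at 13.5 h (unadjusted p = 0.121 by limma).

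DNAJB1, a heat-inducible J-domain protein, was close to level on both of its probe sets apart from a single value. On 200666_s_at its intensity ran only from 569 at 7 AM to 714 at 7 PM, a ratio of 1.25. On 200664_s_at it was 314 at 3 AM, 316 at 7 AM, 318 at 11 AM, 288 at 3 PM, 18.4 at 7 PM and 299 at 11 PM. The median of the other 5 was 17.1 times the 7 PM value, while the other probe set was highest on that same array. A lowest array more than 10-fold below the median of the rest occurred in 0.072% of all tested probe sets. The fitted difference of this probe set, 2.76 ± 1.19 on the log2 scale (unadjusted p = 0.130 by limma), became 0.17 without the 7 PM array and was 3.90 without 3 PM (unadjusted p = 0.0321 by limma) and 3.92 without 11 PM (unadjusted p = 0.0237).

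The inducible HSP70 genes HSPA1A and HSPA1B, which these probes do not tell apart, were highest at 11 AM on all 3 of their probe sets. The intensity of 202581_at was 952 at 3 AM, 839 at 7 AM, 1130.4 at 11 AM, 1071 at 3 PM, 857 at 7 PM and 725 at 11 PM. That of 200799_at was 177 at 3 AM, 168 at 7 AM, 278 at 11 AM, 208 at 3 PM, 187 at 7 PM and 119.7 at 11 PM. Both had their lowest value at 11 PM, and the second ranged 2.32-fold where the first ranged 1.56-fold. The fitted peaks were at 11.9 h and 12.0 h, with log2 differences of 0.49 ± 0.29 and 0.86 ± 0.32, and neither passed (unadjusted p = 0.297 and 0.0804 by limma, exact p = 0.267 and 0.117 over the orders). The probe set that also names HSPA1L, 200800_s_at, ran from 518 at 3 AM to 1078 at 11 AM, and its other values lay between 604 and 847.

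HSPA8, the constitutive HSP70 of the cytosol, had 3 probe sets that did not share one course. On 210338_s_at its intensity was 5597 at 3 AM, 9643 at 7 AM, 11982 at 11 AM, 10466 at 3 PM, 8110 at 7 PM and 7537 at 11 PM. The daytime arrays lay above the rest without overlap, and the fitted peak at 12.6 h was 1.88 times the trough (log2 0.91 ± 0.30). On 221891_x_at the values ran from 2047 at 3 AM to 3557 at 3 PM, with 3411 at 11 AM and 3189 at 11 PM. On 208687_x_at they ran only from 3444 at 3 PM to 4617 at 11 AM, a ratio of 1.34, so 3 PM was highest on one probe set and lowest on another.

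**Figure D2:**
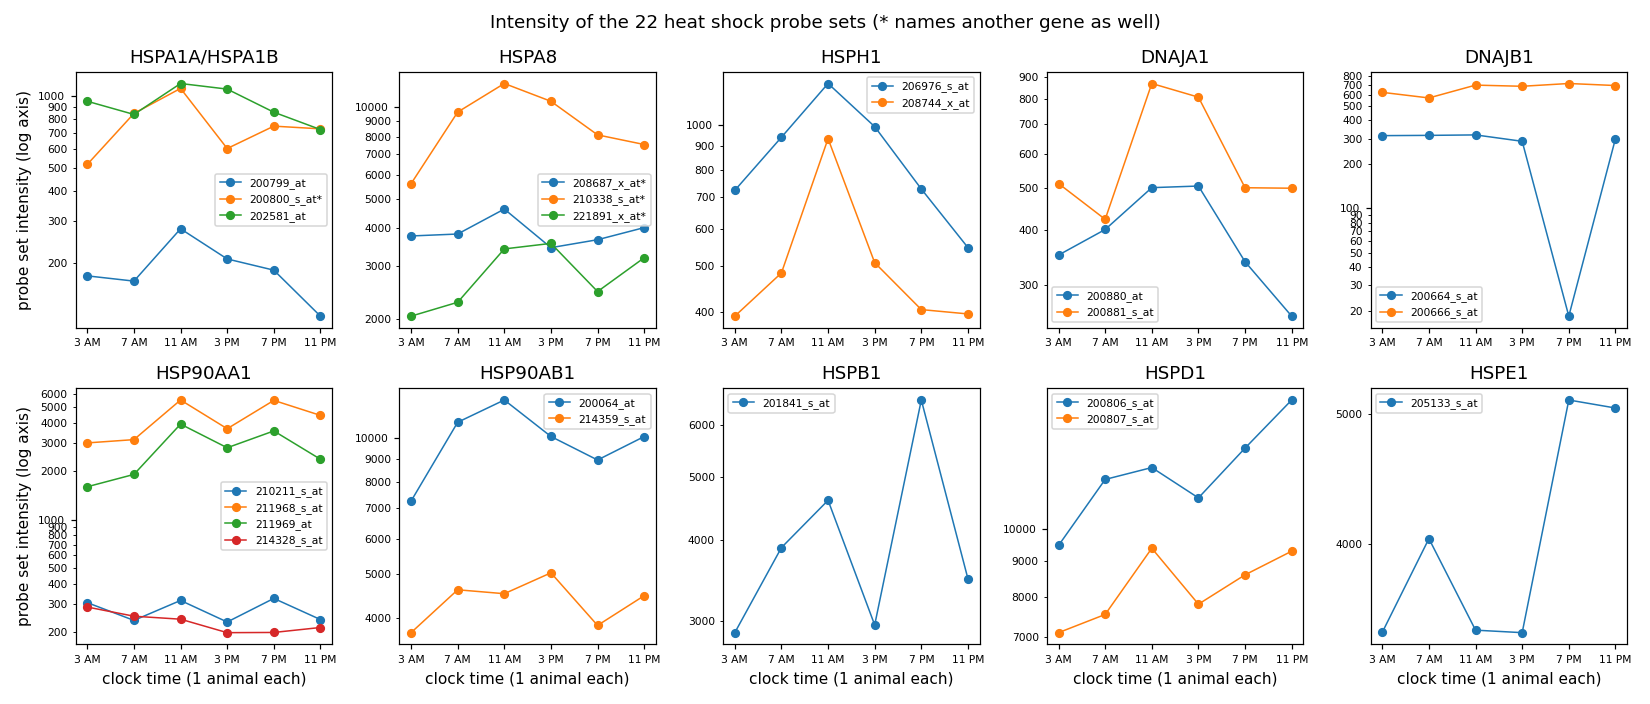
Intensity of the 22 heat shock probe sets by clock time, 1 animal per time, 1 panel per gene on its own log axis; a star marks a probe set that names a gene beyond the member (for HSPA1A, beyond HSPA1A and HSPA1B). Both probe sets of HSPH1 top out at 11 AM, the 2 brighter probe sets of HSP90AA1 share a zigzag with high points at 11 AM and 7 PM, and 1 probe set of DNAJB1 drops to 18.4 at 7 PM.

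HSP90AA1, the stress-inducible HSP90, followed another course, with high values at both 11 AM and 7 PM. The intensity of 211969_at was 1599 at 3 AM, 1907 at 7 AM, 3912 at 11 AM, 2790.0 at 3 PM, 3548 at 7 PM and 2367 at 11 PM. That of 211968_s_at was 2990.2 at 3 AM, 3134 at 7 AM, 5520 at 11 AM, 3662 at 3 PM, 5488 at 7 PM and 4430.3 at 11 PM. Both probe sets ordered the 6 arrays almost alike, 3 AM and 7 AM being the lowest and 11 AM and 7 PM the highest. The first had a fitted peak at 15.4 h, 2.11 times its trough (log2 1.08 ± 0.36, unadjusted p = 0.0548 by limma, exact p = 0.217), and the second a log2 difference of 0.64 ± 0.38 (unadjusted p = 0.303). The other 2 probe sets of this gene were far dimmer, with mean intensities of 276 and 232. On 210211_s_at the values lay between 232 and 324, with 3 AM as well as 11 AM and 7 PM among the high arrays, and on 214328_s_at they went from 287 at 3 AM down to 199 at 3 PM.

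HSP90AB1, the constitutive HSP90, varied less. The intensity of 200064_at was 7261 at 3 AM, 10849 at 7 AM, 12152 at 11 AM, 10091 at 3 PM, 8952 at 7 PM and 10087 at 11 PM. On 214359_s_at it ran from 3715 at 3 AM to 5039 at 3 PM. On both probe sets 3 AM was the lowest and the 3 daytime arrays lay above the 3 others, though 10091 at 3 PM and 10087 at 11 PM on the first were nearly equal. The fitted log2 differences were 0.44 ± 0.31 and 0.26 ± 0.28 with peaks at 12.0 h and 12.5 h, and neither passed (unadjusted p = 0.400 and 0.660 by limma).

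HSPB1, the small heat shock protein, had its highest value at 7 PM. Its intensity was 2882 at 3 AM, 3891 at 7 AM, 4598 at 11 AM, 2962 at 3 PM, 6551 at 7 PM and 3486 at 11 PM. As with HSP90AA1, 7 PM and 11 AM were the highest arrays and 3 AM the lowest. A cosine described little of this (R2 0.158, log2 difference 0.46 ± 0.46, unadjusted p = 0.629 by limma).

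The mitochondrial pair was highest in the evening on 2 of its 3 probe sets and at 11 AM on the third, one of HSPD1. HSPE1, the lid of the chamber, had intensities of 3439 at 3 AM, 4038 at 7 AM, 3452 at 11 AM, 3437 at 3 PM, 5123 at 7 PM and 5053 at 11 PM. It was high on the 2 evening arrays and at 11 AM lay at 0.855 of the median of the other 5. HSPD1, the chamber itself, ran on 200806_s_at from 9476 at 3 AM to 15348 at 11 PM and on 200807_s_at from 7096 at 3 AM to 9388 at 11 AM. Both HSPD1 probe sets were lowest at 3 AM, and 11 PM was the highest array on one and within 1.01-fold of the highest on the other. The fitted log2 differences were 0.52 ± 0.31 for HSPE1, with a peak at 21.5 h, and 0.29 ± 0.32 and 0.19 ± 0.29 for HSPD1. None of these passed (unadjusted p = 0.301, 0.676 and 0.814 by limma).

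Over the day, then, 24-h curves were called for single probe sets of HSPH1 and DNAJA1 at the unadjusted threshold only. By limma's moderated F test 0 of the 18 tested probe sets had an adjusted p under 0.05, as did 0% of the 11108 tested on the array, and 2 of the 18 had an unadjusted p under 0.05, against 5.44% of all tested. Both of these 2 and 6 others of the 18 had a fitted peak between 10 and 14 h, as did 16.7% of all tested. The ordinary F test also called 2. The median fitted log2 difference was 0.51 for the 18 and 0.44 for all tested, and the median ratio of the highest to the lowest array was 1.76 against 1.71, so the medians lay close together. By the exact order test 1 of the 18 had a p under 0.05, as did 3.71% of all tested.

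The calls changed when single arrays were left out, which also leaves fewer arrays to the fit. Without the 11 AM array 0 of the 18 passed the cosine fit at the unadjusted threshold (5.23% of all tested probe sets under the same setting). Without the 3 PM array 5 did (5.29%), namely 1 probe set of DNAJB1 and 2 each of HSPH1 and HSP90AA1. There were 4 without 7 AM (4.73%), 3 without 3 AM (7.19%), 1 without 7 PM (4.69%) and 1 without 11 PM (5.21%). For HSPH1 on 206976_s_at the log2 difference was 0.998 without 11 AM (unadjusted p = 0.0942) and 0.94 without 11 PM (unadjusted p = 0.101), both by limma. On 208744_x_at of HSPH1 it was 0.51 without 11 AM (unadjusted p = 0.452), and it passed without 7 AM (1.23) or 3 PM (1.25). For DNAJA1 on 200880_at it was 1.003 without 11 AM, 0.84 without 3 PM, 0.92 without 7 PM and 0.75 without 11 PM, and none of these passed, nor did it pass with no filter on level (unadjusted p = 0.0750 by limma). With age as a covariate the value of 206976_s_at of HSPH1 was 1.02 ± 0.32 (unadjusted p = 0.0232 by limma). That of 200880_at of DNAJA1 was 1.44 ± 0.89 with a peak at 15.6 h (unadjusted p = 0.0284 by limma). On 208744_x_at HSPH1 reached 2.13 with a peak at 8.10 h (unadjusted p = 0.0458 by limma). Age largely fell along the clock times, from 12 years at 3 AM and 7 AM to 7 years plus 82 days at 7 PM. Age and clock time therefore cannot be fully told apart in these fits.

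**Figure D3:**
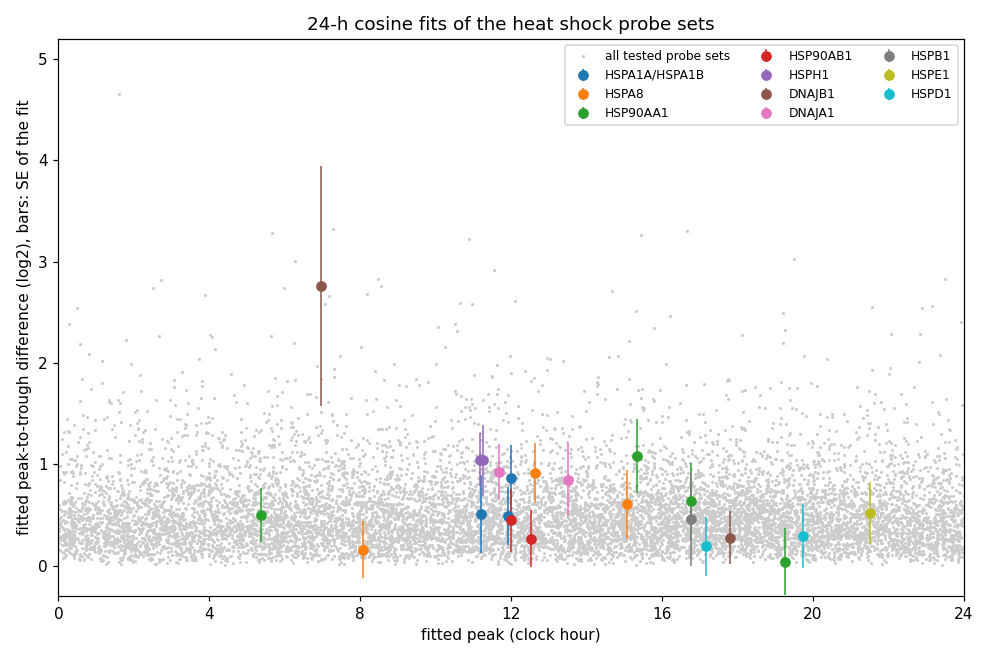
Fitted peak hour against the fitted log2 peak-to-trough difference for each heat shock probe set (coloured, bars show the SE of the fit) and for all tested probe sets (grey). The members of HSPH1, DNAJA1, HSPA1A/HSPA1B and HSP90AB1 lie between 11.2 h and 13.5 h, HSPD1 and HSPE1 lie later, and the highest member point is the DNAJB1 probe set with the single low value at 7 PM.

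Between the daytime arrays (7 AM, 11 AM and 3 PM) and the night arrays (7 PM, 11 PM and 3 AM), both probe sets of HSPH1 and 1 of the 2 of DNAJA1 were higher by day at the unadjusted threshold. The log2 difference, day minus night, was 0.66 ± 0.21 (SE) and 0.62 ± 0.27 on the probe sets 206976_s_at and 208744_x_at of HSPH1 and 0.58 ± 0.21 on 200880_at of DNAJA1. By limma the unadjusted p was 0.0129, 0.0468 and 0.0235, and the adjusted p 0.841 to 0.892. The other DNAJA1 probe set, 200881_s_at, had a difference of 0.41 ± 0.28 and did not pass (unadjusted p = 0.186 by limma). These are 3 of the 18, against 2.93% of all tested probe sets in this direction, and 0 of the 18 were lower by day, against 2.59%. After adjustment 0 of the 18 differed, as did 0% of all tested, and 3 against 3 arrays cannot give an exact p below 0.1. Over all tested probe sets 53.1% of the unadjusted calls were higher by day, which became 42.8% when arrays were centred on their medians.

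The daytime arrays all lay above the night arrays for 6 of the 22 probe sets, against 5.54% of all tested. They were both probe sets of HSPH1, both of HSP90AB1, 200880_at of DNAJA1 and 210338_s_at of HSPA8. The mean was higher by day for 14 of the 22 (49.6% of all tested). The median difference over the 22 was 0.25, and -0.00275 over all tested. The 8 differences below 0 belonged to 3 probe sets of HSP90AA1, 1 of DNAJB1, HSPE1 (-0.30 ± 0.22), HSPB1 (-0.10 ± 0.32) and both probe sets of HSPD1 (-0.08 ± 0.22 and -0.01 ± 0.20), and none of them passed. Without the 11 AM or the 11 PM array 0 of the 18 passed this contrast at the unadjusted threshold, against 5.03% and 4.9% of all tested. Without 11 AM the difference of HSPH1 was 0.54 on 206976_s_at and 0.32 on 208744_x_at, and that of DNAJA1 on 200880_at was 0.53. Without 11 PM these were 0.52, 0.62 and 0.44. On 208744_x_at the call was also lost without 3 AM (0.61) or 7 PM (0.64), and on 200880_at without 3 PM (0.53). That call of 208744_x_at was further lost with no filter on level (unadjusted p = 0.0823), median centring (0.0516) and age as a covariate (0.0647), all by limma, and with the ordinary F test (0.110).

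The arrays themselves were alike in level, with median intensities of 154.1 to 173.4 and correlations across probe sets of 0.916 to 0.928. The spiked hybridisation controls averaged 543 at 3 AM and 671 at 3 PM, below the 950 to 1102 of the rest, so the array on which the members were often lowest was also the lowest in these controls. At 11 AM they averaged 1020. The signal ratio of the 3' to the 5' probe set of GAPDH, a measure of RNA integrity, was 0.885 at 11 AM, within the range of 0.721 to 1.16 over the arrays. The same ratio of ACTB was highest at 3 AM, at 0.819, and low at 11 AM (0.613) and 3 PM (0.610). On the other arrays it was 0.675 to 0.813. The adrenal cortex was present on every array by STAR, which brings cholesterol into mitochondria (9833 to 16413), and CYP17A1, a steroid hydroxylase (28647 to 40394). The medulla was present by TH and PNMT, enzymes of catecholamine synthesis (1903 to 8245 and 936 to 3597).

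Markers of cell types also moved between the animals. At 3 AM the summed intensity of 10 cortex markers was 63911, against 72184 to 96936 on the other arrays, and that of 10 chromaffin markers was 16167, against 23013 to 41494. In the same animal 6 adipocyte markers summed to 4166 (1588 to 3709 elsewhere) and 5 liver markers to 2523 (473 to 998 elsewhere). At 11 AM the cortex sum was 77068 and the chromaffin sum 25916, both inside the range of the other arrays. The mean log2 deviation of the same 10 cortex markers from their own means was however lowest at 11 AM, at -0.32, with -0.23 at 3 AM. That of the chromaffin markers was 0.21 at 11 AM and lowest at 3 AM, at -0.54. At 11 AM 4 red blood cell markers had their highest sum, 2966 against 1770.3 to 2699, and 8 endothelial markers their lowest, 2683 against 2744 to 3968. By mean log2 deviation the endothelial markers were lowest at 11 PM (-0.21) and stood at -0.18 at 11 AM. The liver sum was also lowest at 11 AM, at 473, and so was the mean log2 deviation of the lymphocyte markers, at -0.35. No marker was listed at 0, since the lowest value in the whole table was 0.1. The part of these differences, of the hybridisation controls and of the 3' to 5' ratios in the values of the heat shock genes was not tested.

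Among the other genes of the folding machinery, the HSP90 co-chaperones stood highest at 11 AM most often. Of their 15 tested probe sets 7 were highest at 11 AM, as were 6 of 19 for mitochondrial chaperones and proteases, 6 of 21 for endoplasmic reticulum chaperones, 5 of 18 for the HSP70 family and its exchange factors, 1 of 13 for TRiC and prefoldin, which fold actin and tubulin, 1 of 7 for heat shock factors and regulators, 1 of 5 for small heat shock proteins and 0 of 13 for further J-domain proteins (14.3% of all tested). Of the 19 mitochondrial probe sets 7 were annotated to the protease YME1L1, and these gave 3 of the 6 that were highest at 11 AM. Both probe sets of FKBP4, an immunophilin of the HSP90 complex with steroid receptors, were highest at 11 AM. On 200894_s_at the intensity of FKBP4 was 315 at 3 AM, 284 at 7 AM, 444 at 11 AM, 396 at 3 PM, 219.8 at 7 PM and 255 at 11 PM, with a fitted peak at 10.9 h (log2 0.76 ± 0.34, unadjusted p = 0.147 by limma). On 200895_s_at it ran only from 399 at 7 AM to 521 at 11 AM. The fitted peak there was at 17.6 h (log2 0.18 ± 0.28, unadjusted p = 0.810 by limma), so the courses differed.

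By the cosine fit 0 probe sets passed the unadjusted threshold in 6 of these 8 lists. Their leading genes were DNAJC7 among the J-domain proteins (log2 0.88 ± 0.30, peak at 7.78 h), VBP1 among prefoldin subunits (0.79 ± 0.29, 2.38 h), HSPB3 among small heat shock proteins (0.68 ± 0.27, 17.2 h), HSPA4 in the HSP70 family (0.72 ± 0.33, 18.9 h) and the collagen chaperone SERPINH1 among regulators (0.76 ± 0.35, 20.0 h). By limma the unadjusted p of these ran from 0.0606 for DNAJC7 to 0.169 for SERPINH1. The peaks of these 5 were spread over the day. HSPA4 had 4 tested probe sets, and its value above is that of 208814_at, which was lowest at 11 AM. On 208815_x_at, with a fitted peak at 18.7 h, HSPA4 was highest at 11 AM. The peaks on 211015_s_at and 211016_x_at were at 22.4 h and 0.93 h.

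In the endoplasmic reticulum 1 of 21 probe sets passed, against 5.44% of all tested, that of HYOU1, the HSP70-like exchange factor of that compartment. Its intensity was 536 at 3 AM, 623 at 7 AM, 1696 at 11 AM, 1491 at 3 PM, 925 at 7 PM and 424 at 11 PM, a log2 difference of 2.01 ± 0.33 with a peak at 13.4 h (unadjusted p = 0.00124, adjusted p = 0.866 by limma). Its high arrays, 11 AM and 3 PM, were the same as for DNAJA1, with a wider range. Among mitochondrial chaperones and proteases 2 of 19 passed (again against 5.44%), both annotated to the protease YME1L1 (unadjusted p = 0.00110 and 0.00271 by limma). The annotation gives that gene 13 probe sets, and the 7 that were tested did not run together. 201352_at lay between 216 and 317, whereas 213830_at went from 109 at 3 AM to 935 at 11 AM, so no course is given for YME1L1.

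Immediate early genes, which cells induce within minutes of a stimulus, had another median course. Of their 27 tested probe sets 2 were highest at 11 AM, against 14.3% of all tested. Their median deviation on the log2 scale was -0.09 at 11 AM, 0.25 at 11 PM and -0.32 at 7 PM. That of all tested probe sets was 0.02, -0.003 and 0.03 on these arrays. The cosine fit called 2 of the 27 at the unadjusted threshold (5.44% of all tested), NR4A2 with a peak at 9.38 h (log2 1.48 ± 0.42, unadjusted p = 0.0266 by limma) and JUN with a peak at 2.69 h (0.89 ± 0.26, unadjusted p = 0.0316). On 201464_x_at, the probe set that passed, JUN was 1311 at 3 AM, 907 at 11 AM and lowest at 3 PM, at 681. On 213281_at it was lowest at 11 AM, at 177, and did not pass (unadjusted p = 0.118 by limma). The day against night contrast called 3 of the 27, all higher by day (2.93% of all tested), and NR4A2 gave 2 of these, with log2 differences of 1.11 ± 0.26 and 1.06 ± 0.36.

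**Figure D4:**
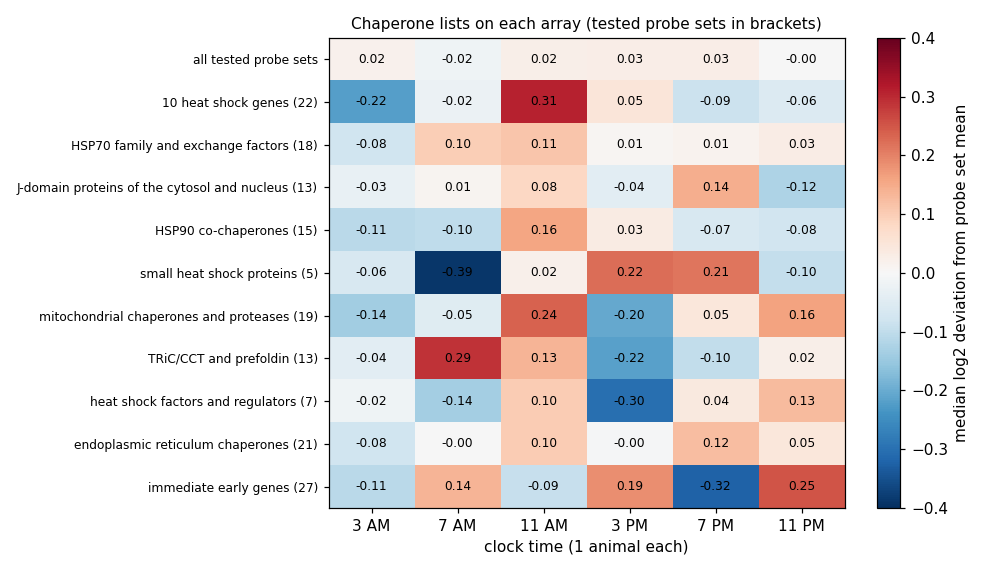
Median log2 deviation from the probe set mean on each array, for all tested probe sets, the 22 heat shock probe sets and 9 lists of related genes (tested probe sets in brackets; 1 animal per clock time). At 11 AM the heat shock members stand at 0.31, mitochondrial chaperones at 0.24 and HSP90 co-chaperones at 0.16, while immediate early genes stand at -0.09. In the mitochondrial list 7 of the 19 probe sets are annotated to YME1L1.

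The profile averaged over the 10 members, each scaled to its own spread and taken from its brightest probe set, stood at -0.91 SD at 3 AM, -0.30 at 7 AM, 0.80 at 11 AM, 0.13 at 3 PM, 0.33 at 7 PM and -0.06 at 11 PM. Of 9814 other probe sets that name a single gene, the most alike over the 6 arrays were those of DST, a cytoskeletal linker (Pearson r = 0.997), RBFOX2, a splicing factor (0.992), and ACOT11, an acyl-CoA thioesterase (0.983). They were followed by FBXO31, SPTBN5, SYNPO, ATP6V0B, MYO9B, BABAM2 and IFNAR1, down to an r of 0.966. None of the 10 belonged to the chaperone lists. RBFOX2 had 623 at 3 AM, 867 at 7 AM, 1566 at 11 AM, 1034 at 3 PM, 1141 at 7 PM and 902 at 11 PM. Over only 6 animals such values are a description of these arrays. Other tested probe sets of the same genes did not always share them, with r from -0.20 to 0.36 for DST, 0.36 to 0.70 for RBFOX2 and -0.34 to 0.89 for BABAM2.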

How the data were processed

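The deposited values are linear intensities, 1 for each probe set on each array. The authors had scaled them: the 2% trimmed means of the arrays lie between 325.04 and 325.09. The array carries human probes, per the platform annotation, and a macaque mismatch can lower a signal. For the software that summarised the probes, the method was not given in sources used here. Of the non-control probe sets 19065 name 1 gene, 1043 several and 2107 none.

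Values became log2(value + 1). The 11108 probe sets with a mean at or above the median (7.30) were tested, controls (68) left out. limma 3.58.1 (R 4.3.3) fitted a cosine of 24 h (moderated F test, 3 residual degrees of freedom) and the day against night contrast, each with Benjamini-Hochberg adjustment over all tested probe sets at 0.05. R2 was compared over 60 circular orders (exact, one-sided). Fits were tested on simulated data. p-values measure the spread of single animals around a curve, and the number of arrays limits precision. Alternatives were level filters, quantile normalization, median centring, a pseudocount of 16, 1 probe set per gene, other variance priors, age and leaving out each array.

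Named genes were the members, the gene with the smallest cosine p in each list and any other with an unadjusted p under 0.05, and the 10 genes most like the members' mean profile. Members and lists were chosen with earlier results of these data known.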

Additional observations from a re-analysis of the deposited data

How the results depend on the processing

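No probe set passed adjustment under the alternatives run, except that with the stricter filter on level (mean at or above the 75th percentile) 1 probe set, of PER2, passed the cosine fit. Counts at the unadjusted threshold moved with the number of probe sets tested. For the cosine, 604 turned into 1141 unfiltered, 347 under the stricter filter and 398 with 1 probe set per gene, and the day against night count of 614 became 1117, 376 and 386. Without single arrays they ran from 521 to 799 and from 544 to 655, and those past adjustment stayed at 0. Of the heat shock probe sets, 2 passed the cosine fit at the unadjusted threshold. This turned into 1 unfiltered, 1 with 1 probe set per gene and 4 with the trend and robust prior, and ran from 0 to 5 without single arrays. The 3 that passed the day against night contrast became 1 with 1 probe set per gene, where fewer probe sets were tested, and ran from 0 to 4 without single arrays. After quantile normalization 7 probe sets were lowest at 3 AM and 1 at 11 AM.

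The alternatives that moved a fitted peak by over 6 h or turned a sign all concerned values that had not passed, except for a probe set annotated to YME1L1. Once age was included, the fitted peak-to-trough value (log2) was 1.57, 1.34 and 0.14 for 211968_s_at, 211969_at and 214328_s_at of HSP90AA1. It was 1.08 for HSPB1, 1.21 for HSPE1, and 1.95 and 1.28 for HSPD1. In these fits of HSP90AA1, HSPB1, HSPE1 and HSPD1 the SE was larger than without age, and none passed the unadjusted threshold. Each of their fitted peaks had moved by over 6 h, so the larger values do not mean stronger curves. With age the value was also 1.0047 for SERPINH1 and 1.86 for YME1L1 on 217143_s_at. The day minus night difference with age was 0.068 for 211968_s_at of HSP90AA1 and 0.037 for 200807_s_at of HSPD1. For 210211_s_at of HSP90AA1 the peak-to-trough difference was 0.055 after quantile normalization and 0.11 after centring, and 0.21 to 0.34 without single arrays. Without single arrays the day minus night difference ran from -0.000119 to 2.01 for DNAJB1 on 200664_s_at and from -0.12 to 0.032 on 200666_s_at. For HSP90AA1 it ran from -0.31 to 0.13 on 211968_s_at, -0.075 to 0.50 on 211969_at and -0.11 to 0.15 on 214328_s_at. For HSPB1 it ran from -0.35 to 0.24, with a peak-to-trough difference of 0.23 to 1.23, and for HSPD1 from -0.28 to 0.072 and -0.12 to 0.071. Apart from the number of probe sets tested, the cause was not tested. No paired analysis was possible because no clock time has a second animal. Dim signals were judged by the level filter alone.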

Other observations

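Some genes were singled out here after their values were seen. The 7 PM value of DNAJB1 on 200664_s_at was one of 8 cases among the 11108 tested probe sets (0.072%) in which 1 array lay more than 10-fold below the median of the other 5. The others were probe sets of SND1, CNN1, ARSA, HSD17B6, ZNF117, CNTNAP2 and one that names TNXA and TNXB. Of the 8, 2 each were lowest at 7 AM, 7 PM and 11 PM and 1 each at 3 AM and 11 AM.

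HSPA9, the HSP70 protein of the mitochondrial matrix, passed no test, and its 3 probe sets ran differently. On 200690_at its intensity was highest at 3 AM, at 431, and lowest at 3 PM, at 92.0. On 200691_s_at it was 712 at 3 AM and 1186 at 3 PM. On 200692_s_at it lay between 783 and 1035. The fitted peaks were at 4.08 h, 17.8 h and 3.10 h, with log2 peak-to-trough differences of 1.46 ± 0.51, 1.09 ± 0.44 and 0.15 ± 0.28 and unadjusted p of 0.0610, 0.107 and 0.877 by limma's moderated F test.

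STIP1, which links HSP70 to HSP90, was highest at 11 AM on both of its tested probe sets. Its intensity there was 763 on 212009_s_at, against 393 to 617 on the other arrays, and 1088 on 213330_s_at, against 511 to 847. Neither passed the cosine fit (unadjusted p = 0.656 and 0.532 by limma).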
